A study of Homo sapiens with 9 samples.

Results

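The 8 genes described here were CDX1, CDX2, KLF4, KLF5, HNF4A, GATA6, VIL1 and LGALS4, a set of transcription factors and markers of intestinal epithelial identity. They were chosen by their gene symbols, and all 8 were found among the 31558 genes of the count table. RNA-seq was performed on polyA RNA of HCT116, a human colorectal cancer (CRC) cell line, to ask which genes change when the long noncoding RNA CRLM1 is overexpressed. The 9 samples fell into 3 groups of 3 biological replicates. CRLM1-OE cells carried a CRLM1 cDNA in the pTSB vector, Anti cells carried the antisense sequence of CRLM1, and Ctrl cells carried the free plasmid. All groups shared the HCT116 background and received a construct. Whether the cells of a group were 1 clone or a pool was not given in the sources used here. Any other difference between the cells of the groups cannot be told apart from the transgene.

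CDX1 and CDX2 are caudal-type homeobox factors that specify and maintain the intestinal epithelium. HNF4A, a nuclear receptor, and GATA6, a zinc-finger factor that binds GATA motifs, act with them in driving enterocyte genes. KLF5 is a Krüppel-like factor of proliferating crypt cells, and KLF4 is its relative in differentiated cells and goblet cells. Villin (VIL1), which bundles actin in the brush border, and galectin-4 (LGALS4), a lectin of the apical membrane, are differentiation products of this program.

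Total counts per sample ranged from 33302292 to 44514692, at which 3 counts, taken as the detection floor, were worth 0.0674 to 0.0901 CPM (counts scaled to the library total). This floor covers counting error only. CRLM1, listed as RP4-710M16.2, was read at 38704, 32751 and 35726 counts with overexpression and at 0 in all Ctrl samples. In Anti it was read at 1951, 1777 and 1540 counts, and whether counting used strand was not given in the sources used here. Markers of other cell types summed to 1.26 CPM or less for endothelium and to 0.210 CPM or less for gastric epithelium in every sample. The fibroblast list (5 of 6 genes in the table) summed to 15.9 to 19.2 CPM for CRLM1-OE, 8.99 to 9.61 for Ctrl and 9.70 to 10.8 for Anti, nearly all of it COL1A1 (305 to 652 counts), with COL1A2, COL3A1 and DCN at 3 counts or fewer. The hepatocyte list summed to 8.23 to 8.50 CPM for CRLM1-OE, 16.2 to 17.9 for Ctrl and 16.7 to 18.6 for Anti, nearly all of it SERPINA1 (281 to 746 counts), with ALB, TTR, APOA2 and FGB at 6 counts or fewer. The leukocyte list (4 of 6 genes in the table) summed to 4.13 to 4.41 CPM for CRLM1-OE, 3.41 to 3.81 for Ctrl and 2.89 to 3.38 for Anti, mostly CD68, with PTPRC at 2 counts or fewer. The part of COL1A1, SERPINA1 and CD68 in the results was not tested.

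Expression of the 8 genes covered a wide range on the per-length FPKM scale (fragments relative to exon length and to the depth of the sample). In Ctrl, KLF4 stood highest at 63.9 ± 0.171 FPKM (SD, n = 3), followed by KLF5 at 17.9 ± 0.254 FPKM (SD, n = 3). CDX2 at 2.92 ± 0.0608, GATA6 at 2.17 ± 0.150 and HNF4A at 1.03 ± 0.0945 FPKM (SD, n = 3 each) formed a low middle tier. The sample ranges of these 5 neighbours in the order did not overlap within Ctrl. CDX1, VIL1 and LGALS4 were at the bottom, with no sample above 0.07 FPKM. In CRLM1-OE the order of the middle tier changed, since GATA6 at 4.0 ± 0.168 FPKM stood above CDX2 at 3.00 ± 0.130 FPKM (SD, n = 3 each) without overlap, and HNF4A stayed below both at 1.38 ± 0.139 FPKM. In Anti the order was that of Ctrl.

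**Figure D1:**
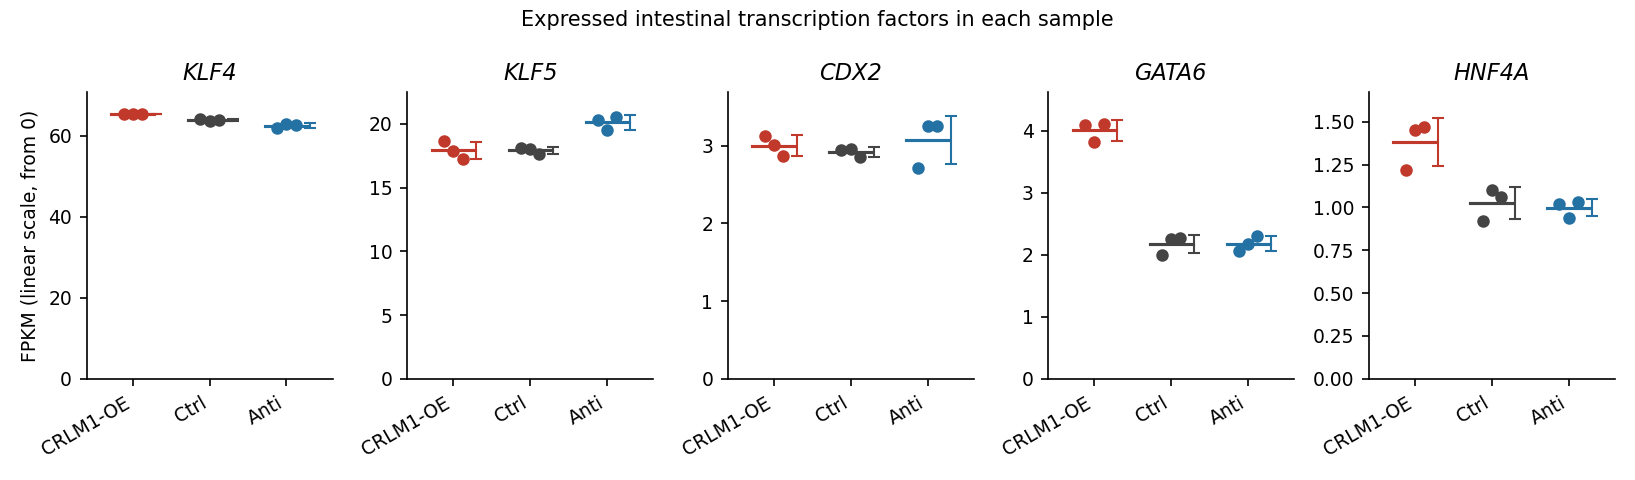
FPKM (vertical axis, linear and starting at 0, with its own scale for each gene) of the 5 expressed transcription factors in CRLM1-OE, Ctrl and Anti. Points are samples, horizontal lines are group means and error bars are the SD of 3 samples. The CRLM1-OE points of GATA6 (3.81 to 4.11) and HNF4A (1.22 to 1.47) lie above every point of the other groups, and the Anti points of KLF5 (19.49 to 20.52) lie above those of both other groups.

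Expression was compared with edgeR's quasi-likelihood test after TMM scaling, with Benjamini-Hochberg adjustment over every gene tested, and a gene was called where the adjusted p did not exceed 0.05. Against Ctrl, GATA6 and HNF4A rose in CRLM1-OE, whereas 2 of the 8 genes, KLF4 and KLF5, were called slightly lower, and the other 4 were not called. Of all genes tested in this comparison 15.0% were called higher and 16.8% lower (31.8% in all). Against Anti, GATA6 and HNF4A again rose, KLF5 was called lower and the other 5 genes were not called, where 17.1% of all genes were called higher and 18.5% lower (35.6% in all). Between Anti and Ctrl, KLF4 was called lower and none of the 8 higher (1 at an unadjusted p under 0.05, and 0 by DESeq2), where 11.5% of all genes were called higher and 12.2% lower (23.7% in all). The 3 comparisons share samples pairwise and are therefore not independent of each other.

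None of the 8 genes met the study's own criterion of a 2-fold change together with the adjusted p, which 3.41%, 5.65% and 1.06% of all genes met in these comparisons. Calls were more frequent among abundant genes: among the 12941 genes whose mean count was 50 or more, to which 5 of the 8 belong, 65.3% were called in CRLM1-OE against Ctrl, 72.2% in CRLM1-OE against Anti and 50.8% in Anti against Ctrl. An increase as large as that of GATA6 was found for 4.03% of these expressed genes against Ctrl and 3.89% against Anti. For HNF4A the same shares were 18.9% and 14.8%. The median log2 fold change of the 5 expressed members was -0.075 against Ctrl, 0.019 against Anti and -0.084 in Anti against Ctrl, beside -0.039, -0.032 and -0.0032 for all expressed genes. Scaling by total counts in place of TMM moved the median of all expressed genes to 0.10, 0.027 and 0.10, so that differences of this size depend on the scaling.

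GATA6 (ENSG00000141448.8) lies on the forward strand at chr18:22169589-22202528 of GRCh38 (GENCODE version 44). Its counts were 772, 571 and 709 with CRLM1 overexpressed, 393, 363 and 353 in Ctrl and 370, 366 and 362 in Anti. On the FPKM scale these were 4.09, 3.81 and 4.11 for CRLM1-OE, 2.00, 2.25 and 2.27 for Ctrl and 2.06, 2.18 and 2.30 for Anti. All 3 CRLM1-OE samples were higher than all 6 other samples, and the Ctrl and Anti samples were intermingled. The log2 fold change was 0.77 ± 0.072 (SE; 95% confidence interval 0.63 to 0.92) against Ctrl, an increase of 71.0%, with an edgeR adjusted p of 1.6e-25. Against Anti it was 0.84 ± 0.072 (SE; 0.69 to 0.98), with an edgeR adjusted p of 5.7e-30. Anti and Ctrl differed by -0.084 (95% confidence interval -0.25 to 0.082, adjusted p = 0.58), a difference whose sign turned under total-count scaling and on the FPKM scale.

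GATA6 was called higher against both groups under each of the 15 alternatives run, including each sample left out in turn, with log2 values from 0.66 to 0.92 against Ctrl and from 0.65 to 0.89 against Anti. A pair of genes in the count table overlaps GATA6 on the opposite strand. GATA6-AS1 shares 94 exonic bases at the start of GATA6 and held 1 to 13 counts per sample. RP11-627G18.1 shares 321 exonic bases at the other end and held 2 to 12 counts. Without known strand use, reads from these bases cannot be assigned to one gene or the other, yet both partners were far below the 353 to 772 counts of GATA6.

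**Figure D2:**
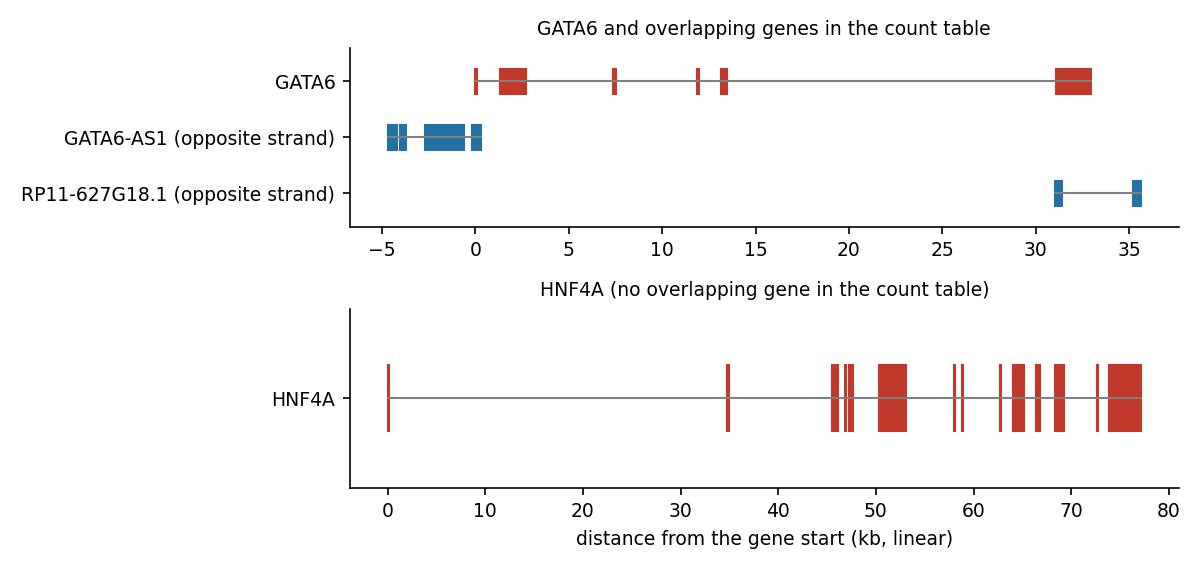
Exons (boxes) and extents (lines) of GATA6 and HNF4A in red and of the overlapping genes that are in the count table in blue, drawn to scale by distance from the start of each gene (horizontal axis, kb). GATA6-AS1 overlaps the start of GATA6 and RP11-627G18.1 its end, both on the opposite strand, and no gene of the count table overlaps HNF4A.

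HNF4A (ENSG00000101076.16) spans 77147 bp on the forward strand at chr20:44355699-44432845 of GRCh38, with 14 coding transcripts that use 9 distinct starts. It held 420, 396 and 463 counts for CRLM1-OE, 329, 324 and 301 for Ctrl and 335, 289 and 295 for Anti. The FPKM values were 1.22, 1.45 and 1.47 for CRLM1-OE, 0.92, 1.10 and 1.06 for Ctrl and 1.02, 0.94 and 1.03 for Anti. The lowest CRLM1-OE sample was above the highest Ctrl sample by a small margin, and Ctrl and Anti overlapped. The log2 fold change was 0.31 ± 0.084 (SE; 95% confidence interval 0.15 to 0.48) against Ctrl, an increase of 24.3% with an edgeR adjusted p of 8.6e-04. Against Anti it was 0.42 ± 0.084 (SE; 0.25 to 0.58) with an edgeR adjusted p of 3.8e-06. Anti and Ctrl differed by -0.13 (-0.30 to 0.052, adjusted p = 0.40).

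HNF4A was also called higher against both groups under each of the 15 alternatives. Its margin was thinner than that of GATA6, with an adjusted p of 0.047 against Ctrl by limma on log2(FPKM + 0.1). Leaving out 1 sample moved its log2 fold change against Ctrl to between 0.24 and 0.40. The count is per gene, so that it does not tell which of the HNF4A starts was in use.

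The bases before the starts of GATA6 and HNF4A are shown because these were the members that rose, and because GATA, CDX, KLF and HNF4 factors are themselves members. Only matches for GATA and CDX factors are in capitals, and those for KLF, HNF4 and HNF1 factors are given below the windows. The windows hold the 250 bases before the annotated start, taken from RefSeq on GRCh38.p14 and given on the forward strand, with matches to GATAA (GATA factors) or TTTAT (CDX factors), searched on both strands, in capitals. The window of GATA6 is chr18:22169339-22169588, that of the upstream HNF4A start (window 1) is chr20:44355449-44355698 and that of the downstream start (window 2) is chr20:44400989-44401238.
GATA6: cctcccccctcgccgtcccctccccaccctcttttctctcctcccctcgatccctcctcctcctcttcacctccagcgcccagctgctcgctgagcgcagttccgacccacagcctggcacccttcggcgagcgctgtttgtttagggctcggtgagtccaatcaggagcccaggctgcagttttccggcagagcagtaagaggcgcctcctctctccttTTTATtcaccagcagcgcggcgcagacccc
HNF4A window 1: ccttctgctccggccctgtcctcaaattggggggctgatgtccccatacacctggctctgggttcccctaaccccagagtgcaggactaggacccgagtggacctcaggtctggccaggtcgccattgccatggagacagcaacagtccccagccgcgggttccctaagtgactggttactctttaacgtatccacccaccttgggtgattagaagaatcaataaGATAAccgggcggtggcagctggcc
HNF4A window 2: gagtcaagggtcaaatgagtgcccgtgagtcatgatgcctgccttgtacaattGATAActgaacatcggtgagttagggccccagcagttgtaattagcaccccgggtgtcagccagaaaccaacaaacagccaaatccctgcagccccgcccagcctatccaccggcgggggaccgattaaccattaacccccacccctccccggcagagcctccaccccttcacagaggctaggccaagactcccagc

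The GATA6 window held 1 TTTAT, 30 bases before the start, and no GATAA. Each HNF4A window held 1 GATAA, 25 bases before the upstream start and 197 bases before the downstream start, and no TTTAT. Among 35116 RefSeq windows of the same length 20.4% held GATAA and 32.7% TTTAT on either strand, so that single matches to these motifs are common. The shares were 31.3% for CCACCC, 42.1% for CAAAG and 6.23% for GTTAAT. Of the 8 genes 6 matched an entry, with 8 windows in all, and CDX1 and VIL1 did not. The CDX2 window held a GATAA and a TTTAT that overlap, 119 and 120 bases before the start. It also held a further TTTAT at 179 bases and a CAAAG at 238 bases. These matches are letters in a window and not binding sites.

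CDX2 (ENSG00000165556.9), on the reverse strand at chr13:27960918-27969315, did not pass the test in any comparison. It held 607, 463 and 508 counts for CRLM1-OE, 596, 490 and 456 for Ctrl and 502, 563 and 525 for Anti. The FPKM values were 3.13, 3.01 and 2.87 for CRLM1-OE, 2.95, 2.96 and 2.85 for Ctrl and 2.72, 3.26 and 3.25 for Anti. All groups overlapped, and the Anti samples spread most widely. The log2 fold change against Ctrl was -0.075 (95% confidence interval -0.21 to 0.065, edgeR adjusted p = 0.51) and turned to 0.066 under total-count scaling. Against Anti it was -0.078 (-0.22 to 0.060, edgeR adjusted p = 0.46). As a fold against Ctrl, this interval runs from 0.862 to 1.05.

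CDX2 is close in count to GATA6 and HNF4A. The ratio of the counts of different genes within a sample is free of any scaling between samples, whatever their levels. GATA6 had 1.27, 1.23 and 1.40 counts per count of CDX2 for CRLM1-OE, 0.659, 0.741 and 0.774 for Ctrl and 0.737, 0.650 and 0.690 for Anti. HNF4A had 0.692, 0.855 and 0.911 counts per count of CDX2 for CRLM1-OE, 0.552, 0.661 and 0.660 for Ctrl and 0.667, 0.513 and 0.562 for Anti. Both ratios were higher in every CRLM1-OE sample than in any other sample, by a wide gap for GATA6 and a narrow one for HNF4A. The ratio shows that these genes changed unequally and not that CDX2 was constant.

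KLF4 (ENSG00000136826.14), on the reverse strand at chr9:107484852-107490482, was the most abundant of the 8 genes with 7278 to 9368 counts per sample. Its FPKM values were 65.33, 65.33 and 65.42 for CRLM1-OE, 64.11, 63.80 and 63.83 for Ctrl and 61.87, 62.99 and 62.70 for Anti. The groups did not overlap on the FPKM scale, and CRLM1-OE was the highest there. After TMM scaling, however, KLF4 was called lower with CRLM1 overexpressed than in Ctrl, with a log2 fold change of -0.082 ± 0.026 (SE, adjusted p = 0.0049), and this sign turned to 0.059 (adjusted p = 0.063) under total-count scaling. Against Anti the log2 fold change was 0.019 (95% confidence interval -0.027 to 0.064, adjusted p = 0.56) with TMM and 0.078 (adjusted p = 0.0015) with total counts. Between Anti and Ctrl it was -0.12 ± 0.025 (SE, edgeR adjusted p = 1.0e-05) with TMM and -0.018 (adjusted p = 0.63) with total counts. The direction for KLF4 between CRLM1-OE and Ctrl thus depended on the scaling, and the call was also lost without Ctrl replicate 3 (adjusted p = 0.074).

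KLF5 (ENSG00000102554.13), on the forward strand at chr13:73054976-73077541, held 2546 to 3478 counts per sample. The FPKM values were 18.64, 17.88 and 17.28 for CRLM1-OE, 18.13, 18.00 and 17.64 for Ctrl and 20.35, 19.49 and 20.52 for Anti. All 3 Anti samples were above the 6 other samples, which overlapped. KLF5 was lower in CRLM1-OE than in Anti, with a log2 fold change of -0.21 ± 0.032 (SE; 95% confidence interval -0.27 to -0.15, edgeR adjusted p = 1.8e-10). Its sign was the same under every alternative, and the call was lost only by limma on log2(FPKM + 0.1) (adjusted p = 0.064). Against Ctrl the TMM value was -0.11 ± 0.034 (SE, adjusted p = 0.0037), which turned to 0.028 (adjusted p = 0.57) with total counts and was not called without CRLM1-OE replicate 3 (adjusted p = 0.062). Anti against Ctrl gave 0.075 (0.0095 to 0.14, adjusted p = 0.094) with TMM and 0.18 (adjusted p = 5.9e-07) with total counts.

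As KLF4 and KLF5 are both abundant, their ratio within a sample was also read without scaling. There were 0.365, 0.350 and 0.338 counts of KLF5 per count of KLF4 for CRLM1-OE, 0.362, 0.361 and 0.353 for Ctrl and 0.421, 0.395 and 0.418 for Anti. The Anti samples were higher than all others, and CRLM1-OE and Ctrl overlapped. Relative to KLF4, KLF5 was therefore set apart in Anti and not in CRLM1-OE.

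**Figure D3:**
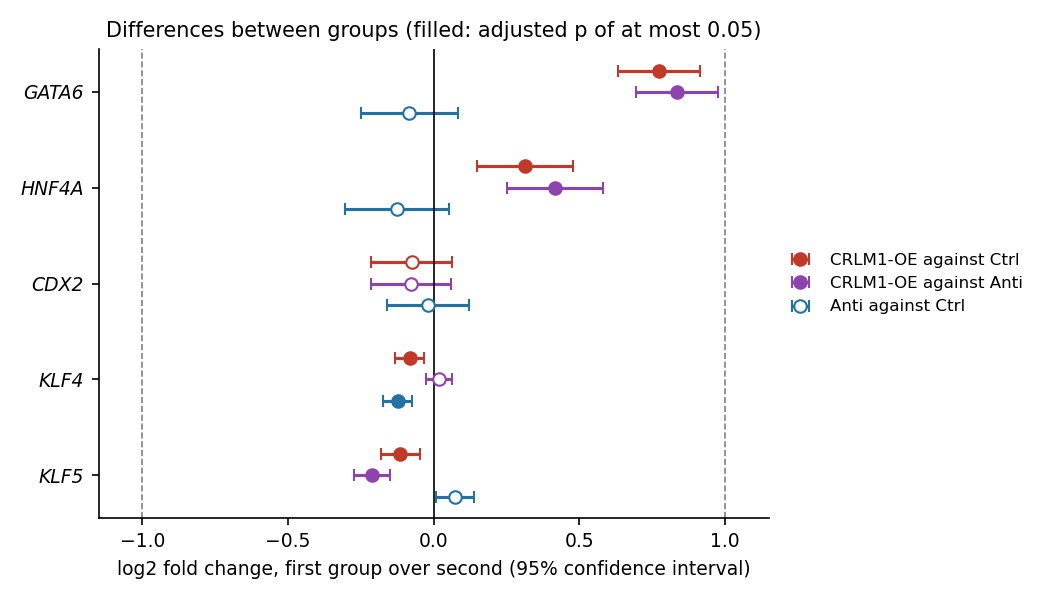
Log2 fold change after TMM scaling (horizontal axis) of the 5 expressed transcription factors in CRLM1-OE against Ctrl, CRLM1-OE against Anti and Anti against Ctrl, with 95% confidence intervals from 6 samples each. Filled points passed an adjusted p of 0.05 and dashed lines mark a 2-fold change. GATA6 (0.77 and 0.84) and HNF4A (0.31 and 0.42) stand apart on the right in both CRLM1-OE comparisons, while the values of KLF4, KLF5 and CDX2 lie within 0.21 of 0, and those against Ctrl in CRLM1-OE change sign under total-count scaling.

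CDX1, VIL1 and LGALS4 were barely detected. CDX1 (ENSG00000113722.16; chr5:150166778-150184558, forward strand) held 3, 2 and 2 counts for CRLM1-OE, 1, 2 and 0 for Ctrl and 0, 2 and 0 for Anti. LGALS4 (ENSG00000171747.8; chr19:38801671-38812945, reverse strand) held 3, 1 and 3 counts for CRLM1-OE, 5, 1 and 2 for Ctrl and 3, 1 and 0 for Anti. Both genes were at or near the floor of 3 counts in each group, where a fitted fold depends on the prior count, so that no fold is read for them.

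VIL1 (ENSG00000127831.10; chr2:218419121-218453295, forward strand) held 1, 3 and 9 counts for CRLM1-OE, 7, 3 and 7 for Ctrl and 10, 7 and 4 for Anti. The groups overlapped, and the log2 fold change against Ctrl had a 95% confidence interval from -1.80 to 0.85 (adjusted p = 0.63). Its 3′ part overlaps USP37, a deubiquitinase gene on the opposite strand, over 3045 exonic bases. USP37 held 413 to 736 counts, so that the few reads of VIL1 cannot be assigned with certainty. A difference in CDX1, VIL1 or LGALS4 was not detectable at this depth.

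**Figure D4:**
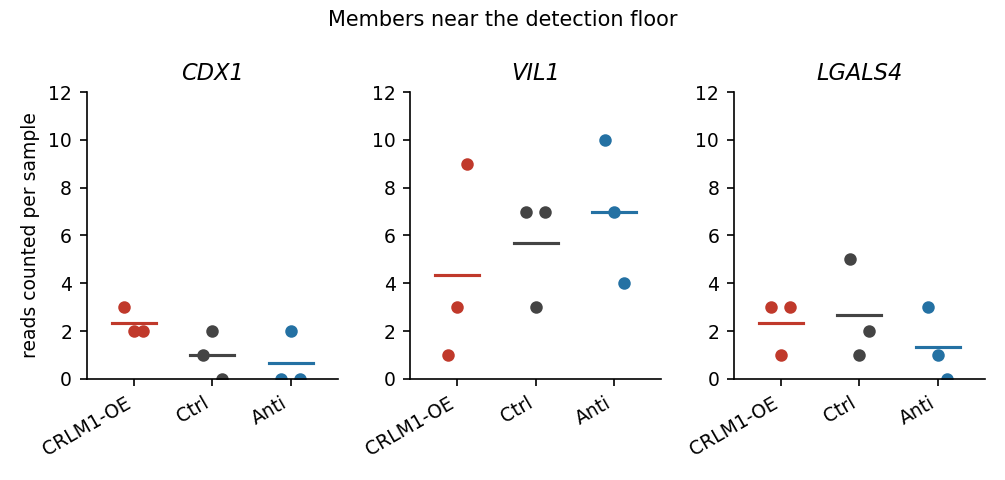
Reads counted per sample (vertical axis, linear and from 0) for CDX1, VIL1 and LGALS4 in CRLM1-OE, Ctrl and Anti. Points are samples and horizontal lines are group means of 3 samples. No sample exceeds 10 counts, and the groups overlap for each gene.

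The near absence of these genes was checked against other markers of colon epithelium. EPCAM (74.4 FPKM on average for CRLM1-OE, 87.8 for Ctrl and 93.1 for Anti), KRT8, KRT18, KRT19 and CDH1 were abundant in every sample. CDH17, the intestinal cadherin, held 1 to 11 counts and the surface antigen GPA33 3 to 14 counts per sample. Of the more specific intestinal markers in this list, CDX2 was present at 456 to 607 counts, while CDX1, VIL1, LGALS4, CDH17 and GPA33 were at or near 0. As the samples are bulk RNA, fewer expressing cells and less RNA per cell cannot be told apart for any of these genes.

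The genes most like each member were sought among 11702 genes whose mean count was 100 or more, by the root mean square difference of centred log2 CPM over the 9 samples. Those nearest to GATA6 were ZNF775 (0.059), LATS2 (0.060), a kinase of the Hippo pathway, and MAPRE2 (0.066). For HNF4A they were MITD1 (0.072), MRPL13 (0.074) and ACOX3 (0.075). For KLF5 they were ARPC5 (0.020), DDX56 (0.023) and SMU1 (0.028), and for KLF4 the clone-named ENSG00000261147.1 (0.016), PPIA (0.018) and EPAS1 (0.019). For CDX2 the nearest were ZNF574 (0.043), C2orf47 (0.044) and C11orf49 (0.053). The nearest genes of GATA6 rose by 0.68 to 0.75 on the log2 scale against Ctrl, close to its own 0.77. They were chosen for likeness over these same samples, so that such closeness was set by the choice and is no separate result.

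The paralogues of these factors were examined from lists chosen by textbook roles. Of the GATA, CDX and HNF4 paralogues, 2 of 4 tested rose against Ctrl, 2 of 5 rose against Anti and none was called lower, also by DESeq2 and at an unadjusted p under 0.05. Only 3 of the 5 had a mean count of at least 50, and 2 were under 0.1 FPKM on average. The calls were all among these 3, a level at which 65.3% of all genes were called against Ctrl and 72.2% against Anti. The counts are therefore no sign of a change particular to these paralogues. In Anti against Ctrl 0 of 5 were called in either direction by edgeR, at an unadjusted p under 0.05 and by DESeq2. The rising genes were GATA2, a factor of blood progenitors, at 2.80 ± 0.125 FPKM for CRLM1-OE, 1.55 ± 0.110 for Ctrl and 1.74 ± 0.0173 for Anti (SD, n = 3 each), and GATA3, a factor of T cells and luminal epithelium. GATA2 rose by 0.74 ± 0.088 and GATA3 by 0.68 ± 0.17 on the log2 scale (SE) against Ctrl, next to the 0.77 of GATA6. Against Anti the values were 0.64 ± 0.085 for GATA2 and 0.51 ± 0.16 for GATA3, and the latter was not called by DESeq2, by limma or without Anti replicate 1. The leukocyte marker PTPRC was at 2 counts or fewer in every sample.

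The KLF and SP family, to which KLF4 and KLF5 belong, moved in both directions. Against Ctrl 9 of the other 23 members tested were higher and 6 lower (10 and 3 with total counts), and against Anti 7 of 24 were higher and 6 lower (9 and 6 with total counts). The 17 with a mean count of at least 50 held 6 higher and 6 lower with TMM in each of these comparisons. Of all such genes 65.3% were called against Ctrl and 72.2% against Anti, so that these counts are near the general share. KLF15 (0.78 ± 0.14), SP6 (0.67 ± 0.057) and KLF13 (0.65 ± 0.039, log2, SE) rose most against Ctrl among those with a mean count of at least 50. Against Anti, KLF9 rose by 0.65 ± 0.083 and KLF10, a TGF-β-inducible member, fell by 0.54 on the log2 scale. For Anti against Ctrl 5 of 24 were higher and 3 lower (7 and 1 with total counts), led by KLF13 and KLF2 at 0.34 each and SP3 at 0.24.

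Other transcription factors of the intestine also split. Against Ctrl 4 of 22 were higher and 3 lower (7 and 2 with total counts), with a median log2 fold change of 0.09 beside 0.02 for all genes tested. The 14 with a mean count of at least 50 held 4 higher and 3 lower, where 65.3% of all such genes were called. EHF, an epithelial ETS factor, changed most: it was 3.39 ± 0.0700 FPKM for CRLM1-OE, 7.12 ± 0.317 for Ctrl and 10.3 ± 0.197 for Anti (SD, n = 3 each). On the log2 scale EHF differed by -1.19 ± 0.057 against Ctrl, -1.65 ± 0.051 against Anti and 0.43 ± 0.045 for Anti against Ctrl (SE), each called. The vitamin D receptor VDR rose by 0.62 ± 0.075 and PRDM1, a repressor that restrains adult enterocyte genes before weaning, fell by 0.53 on the log2 scale against Ctrl, a call that limma did not make. Against Anti 6 of 23 were higher and 3 lower (8 and 3 with total counts). These TMM calls were all among the 14 with a mean count of at least 50, where 72.2% of all such genes were called. Between Anti and Ctrl 1 of 21 was higher and 5 lower (6 and 4 with total counts), FOXA3 among the latter (-0.49 ± 0.066).

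The genes downstream of this network were mostly silent or mixed. Of 21 listed enterocyte enzymes, transporters and lipid carriers in the count table, 17 were under 0.1 FPKM on average. Against Ctrl 2 were higher and 1 lower (4 and 1 with total counts), and against Anti 3 higher and 1 lower. The higher ones in both were the aminopeptidase ANPEP and the sodium/proton exchanger SLC9A3, named after their values were seen and resting on mean counts of 11 and 8, and the lower one was the peptidase DPP4 (-0.46 ± 0.12 and -0.49 ± 0.11, log2, SE), whose call against Ctrl was lost without Ctrl replicate 3 and with limma. Anti against Ctrl gave 1 lower gene of 19, DGAT1 (-0.16 ± 0.038), not called with total counts or by limma at either pseudocount.

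Brush border genes, the structural partners of villin, differed by comparison and by scaling. Against Ctrl 3 of 18 were higher and 6 lower with TMM, but 5 higher and 2 lower with total counts. The 12 with a mean count of at least 50 held 2 higher and 6 lower with TMM, where 65.3% of all such genes were called. Against Anti 10 of 18 were higher and 2 lower, and in Anti against Ctrl none was higher and 10 were lower (7 with total counts). At an unadjusted p under 0.05, 1 would be higher there, and by DESeq2 0. The same 12 held 9 higher and 1 lower against Anti, where 72.2% of all 12941 such genes were called and 4306 were higher. In Anti against Ctrl they held 0 higher and 10 lower, where 50.8% were called and 3478 were lower. EPS8, an actin-capping protein, fell by 0.63 and espin (ESPN) rose by 0.30 ± 0.031 on the log2 scale against Ctrl. VILL, the villin-like paralogue of VIL1, was 0.80 ± 0.19 higher in CRLM1-OE than in Anti and 0.84 lower in Anti than in Ctrl.

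Colon epithelial markers were lower against Ctrl in 7 of 18 cases and higher in 0, also by DESeq2 and at an unadjusted p under 0.05 (6 lower and 1 higher with total counts). Beside this, 16.8% of all genes tested were lower. Only 7 markers had a mean count of at least 50, and 5 of these were lower, beside 4748 of all 12941 such genes. With 9 of the 18 under 0.1 FPKM on average, the lack of higher calls says little about those 9. The leading lower markers were KRT18 (-1.0 ± 0.018), which encodes the keratin partner of KRT8, the adhesion molecule CEACAM1 (-1.07 ± 0.14) and EPCAM (-0.35 ± 0.027, log2, SE). Against Anti 7 of 17 were lower and 1, KRT19, was higher (0.38 ± 0.012). Of the 7 with a mean count of at least 50, 5 were lower there, beside 5033 of all 12941 such genes. KRT19 was also lower in Anti than in Ctrl (-0.58, log2), at 3106 FPKM for CRLM1-OE, 3235 for Ctrl and 2305 for Anti. It was thus low in Anti rather than raised above Ctrl in CRLM1-OE. Anti against Ctrl gave 1 higher and 2 lower (4 and 2 with total counts). Among the galectins and villin relatives 2 of 16 were higher and 5 lower against Ctrl (3 and 2 with total counts). These TMM calls were all among the 10 with a mean count of at least 50, a level at which 65.3% of all genes were called. LGALS8 was at -0.47 ± 0.072 and gelsolin (GSN) at 0.25 ± 0.026. Against Anti 5 were higher and 5 lower, and in Anti against Ctrl 2 were higher and 6 lower (4 and 5 with total counts). The 10 with a mean count of at least 50 held 4 higher and 5 lower against Anti, where 72.2% of all such genes were called. In Anti against Ctrl they held 1 higher and 6 lower, where 50.8% were called. LGALS7B gave -1.37 ± 0.17 (log2, SE) in CRLM1-OE against Ctrl, which is uncertain because LGALS7 is a near-identical copy.

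**Figure D5:**
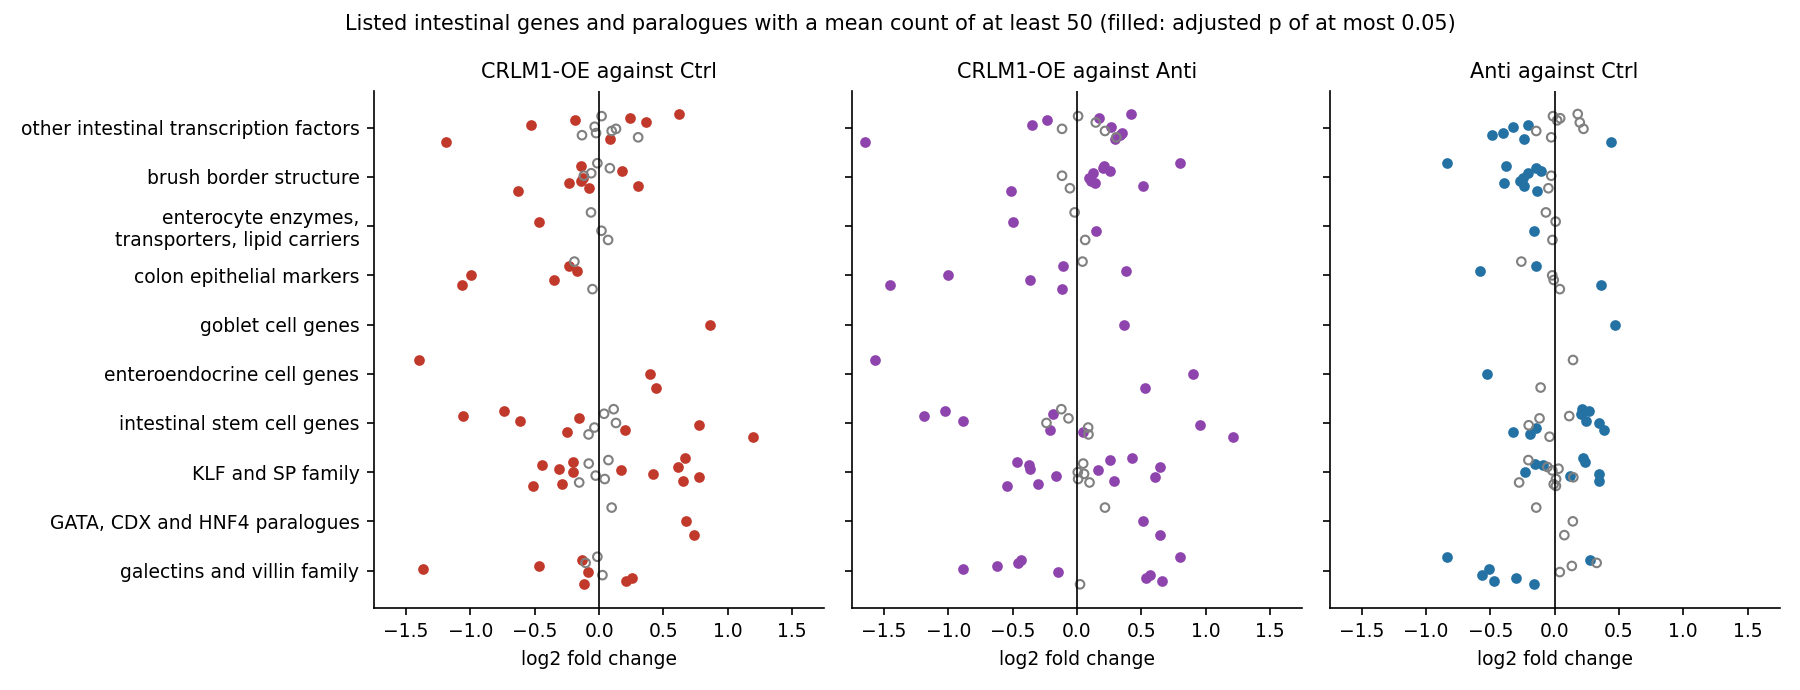
Log2 fold change after TMM scaling (horizontal axis) of listed genes whose mean count was 50 or more, by list (vertical axis), in the 3 comparisons. Each point is a gene, filled where its adjusted p was at most 0.05, and genes in 2 lists appear in both. In CRLM1-OE against Ctrl EHF (-1.19), KRT18 (-1.0) and CEACAM1 (-1.07) lie far to the left, GATA2 (0.74) and GATA3 (0.68) lie to the right, and most brush border points lie within 0.30 of 0, where the balance of higher and lower calls turns under total-count scaling.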

How the data were processed

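RNA of 9 HCT116 samples (CRLM1-OE, Ctrl and Anti, 3 biological replicates each, grouped by their labels) was sequenced by the authors as pairs of 151 nt reads. The authors dropped reads shorter than 16 nt, mapped the others with TopHat2, allowing 4 mismatches, on GRCh38 and Gencode version 23, and deposited raw counts of uniquely mapped reads per gene. The authors also deposited FPKM values, given to 2 decimals, for 31268 genes. The tables hold genes the authors call expressed. That criterion, strand use and the counting of read pairs are not given in the sources used here.

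For the comparisons, glmQLFit and glmQLFTest of edgeR 4.0.16 (R 4.3.3) were run with TMM factors on the 6 samples of each comparison, without covariates, for every gene with at least 1 count in them. Genes were called where the Benjamini-Hochberg adjusted p did not exceed 0.05, and those that also passed the 2-fold change were counted. Alternatives were RLE factors, total counts without factors, filterByExpr, at least 10 counts in every sample, DESeq2 1.42.0, limma 3.58.1 on log2(FPKM + 0.1) and log2(FPKM + 1), all 9 samples in 1 fit, a replicate block, and each sample left out in turn. Fold changes from limma are on the log2(FPKM + pseudocount) scale and understate those of low genes. The fits were tested on simulated data. p-values measure the spread between 3 samples per group, and the sources used here do not say whether these were separate transfections.

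The 8 members and all lists were chosen with earlier results of these data known. Besides the members, the text names genes from, in each list and comparison, the 3 called genes with the largest absolute log2 fold change and a mean count of at least 50, the 3 genes most like each member, and markers. A gene that this rule selects is not reported here. Positions and overlaps are from GENCODE version 44. Tables and figures were made with Python 3.11.15, pandas 2.3.3 and matplotlib 3.10.9.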

Additional observations from a re-analysis of the deposited data

How the results depend on the processing

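GATA6 and HNF4A were called higher in CRLM1-OE against both other groups under each of 15 alternatives. With a 2-fold change added to the adjusted p, 0 members were called in each direction of each comparison. Against Ctrl 2 members were called lower, but 0 with total counts and with limma on log2(FPKM + 0.1) and log2(FPKM + 1), and 1 to 2 with 1 sample left out (1 without CRLM1-OE replicate 3 or without Ctrl replicate 3). Against Anti 1 member was called lower, and 0 by limma on log2(FPKM + 0.1). In Anti against Ctrl KLF5 made 1 member called higher with total counts, filterByExpr, at least 10 counts in every sample and limma on log2(FPKM + 1), and KLF4 was no longer called lower (0 members) with total counts and both limma settings.

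The sign turned in CRLM1-OE against Ctrl with total counts, limma on log2(FPKM + 0.1) and limma on log2(FPKM + 1), in that order, for CDX2 (0.0661, 0.0386 and 0.0300), KLF4 (0.0590, 0.0322 and 0.0318) and KLF5 (0.0275, 0.0002 and 0.0002). It turned in Anti against Ctrl under the same settings for CDX2 (0.0852, 0.0684 and 0.0538) and GATA6 (0.0209, 0.0051 and 0.0034). With 1 sample left out, the log2 fold change against Ctrl ran from -1.53 to 0.044 for VIL1 and from -0.61 to 0.38 for LGALS4 in CRLM1-OE, and in Anti from -3.20 to 0.34 for CDX1, from -0.069 to 0.064 for CDX2 and from -0.062 to 0.49 for VIL1. Those of CDX1, VIL1 and LGALS4 rest on at most 10 counts per sample, and the fitted values of CDX1 and LGALS4, at the floor, depend on the prior count and are not read as folds. Total counts and limma on FPKM leave out the TMM factors by construction.

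With the replicate block, 2 members were called higher and 2 lower against Ctrl, 2 and 1 against Anti, and 0 and 1 in Anti against Ctrl, as without it. Same-numbered samples did not deviate together more than others (correlations from -0.10 to 0.086, beside -0.15 to 0.19 for differently numbered samples). The numbers thus gave no sign of pairing, but whether samples of 1 number were processed together is not given in the sources used here. The block changed no call of a member.

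Of the 60 counts of higher or lower genes over the lists, 16 moved by more than 1.5 times with total counts, 28 and 18 with limma at the smaller and the larger pseudocount, 3 with filterByExpr, 6 with at least 10 counts, 5 with DESeq2, 1 with all 9 samples, 1 with the block and 0 with RLE factors. With 1 sample left out 0 to 6 of 40 such counts moved, most without Ctrl replicate 2. No listed gene named by the rule changed sign under any of these alternatives. The rule picked called genes with large differences in these same data, so that a stable sign was largely set by the choice. The filters on low counts removed CDX1, VIL1 and LGALS4, for which depth is the limit.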

Other observations

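Lists of genes of the secretory and stem cell compartments of the intestine were also measured. Of 7 goblet cell genes tested against Ctrl only FCGBP, the Fc fragment binding protein of mucus, was called, with a log2 fold change of 0.86 ± 0.092 (SE, edgeR). It was also 0.37 ± 0.084 higher in CRLM1-OE than in Anti and 0.47 ± 0.098 higher in Anti than in Ctrl, where the last call was lost by limma on log2(FPKM + 0.1). Its level was low, at 0.773 ± 0.0551 FPKM for CRLM1-OE, 0.40 ± 0.050 for Ctrl and 0.583 ± 0.0611 for Anti (SD, n = 3 each). No goblet cell gene was called lower in any comparison by edgeR, by DESeq2 or at an unadjusted p under 0.05, while limma on log2(FPKM + 0.1) called 1 lower in CRLM1-OE against Anti. FCGBP was the only 1 of the 7 with a mean count of at least 50, and 4 were under 0.1 FPKM on average. At such levels a lower call could hardly be reached, so that its absence says little. Among enteroendocrine genes 3 of 9 rose and 1 fell against Ctrl, and 3 of 10 rose and 1 fell against Anti. Only 3 had a mean count of at least 50, and in each of these comparisons 2 of them were higher and 1 lower. Of all such genes 65.3% were called against Ctrl and 72.2% against Anti. The remaining riser of each comparison lay below that count. PYY, the hormone peptide YY, was 0.40 ± 0.14 and PAX6 0.44 ± 0.13 higher against Ctrl, while the secretogranin SCG2 was lower at -1.40 ± 0.11 (log2, SE). The call of PYY was lost with DESeq2, without CRLM1-OE replicate 1 and without Ctrl replicate 3. In Anti against Ctrl 1 of 10, PYY, was lower and 0 were higher (1 at an unadjusted p under 0.05, 0 by DESeq2, and 1 with total counts, with limma at either pseudocount and without Ctrl replicate 3). The call of PYY there was lost with limma on log2(FPKM + 0.1) and without Ctrl replicate 2, which left 0 lower.

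Stem cell genes moved both ways. Against Ctrl 4 of 17 rose and 5 fell (7 and 4 with total counts), and against Anti 3 of 15 rose and 5 fell (6 and 5 with total counts). The 13 with a mean count of at least 50 held 3 higher and 5 lower against Ctrl, where 65.3% of all such genes were called. Against Anti these 13 also held 3 higher and 5 lower, where 72.2% of all such genes were called. AXIN2, a WNT target, rose by 1.20 ± 0.14 against Ctrl and 1.21 ± 0.14 against Anti (log2, SE), from 0.363 ± 0.0289 FPKM in Ctrl to 0.907 ± 0.0586 in CRLM1-OE (SD, n = 3 each). The receptor EPHB3 rose by 0.78 ± 0.10 against Ctrl, and PROM1 gave -1.05 ± 0.074. With Anti against Ctrl 6 of 17 rose and 3 fell (7 and 1 with total counts), among them CDCA7 at 0.39 ± 0.062 and CD44 at -0.32 ± 0.021.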
